A study of Mus musculus with 3 samples.

Results

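Folate, thiamine, ascorbate and biotin were followed here through the genes for their carriers in the mouse choroid plexus epithelium (CPE), the cell layer that makes cerebrospinal fluid and forms the barrier between blood and this fluid. The members were 8 genes, taken as every gene probe on the array whose listed name was *Folr1*, *Folr2*, *Slc19a1*, *Slc19a2*, *Slc19a3*, *Slc23a1*, *Slc23a2* or *Slc5a6*. They are 8 of the 19694 genes with a current symbol on the array, covered by 12 of its 41174 probes. CPE was cut by laser from brain cryosections of 3 healthy, untreated, adult female C57BL/6 mice, and its amplified RNA was labelled with Cy5. On each of the 3 arrays it was hybridised beside a common reference, RNA of the RPE/choroid (the pigmented epithelium behind the retina with its vascular coat), also from C57BL/6, labelled with Cy3. The sex and age of the reference animals are not given in the sources used here. No array had its dyes swapped, so a dye bias of a probe stays in its ratio, and the reference is 1 RNA whose own spread between animals is not in the errors. Each array was of a different mouse, and 2 of the arrays (mice 1 and 3) were scanned on one day and that of mouse 2 on another.

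The choroid plexus is known as the main gate by which folate and ascorbate enter the cerebrospinal fluid and the brain. Folate is bound by folate receptor alpha (*Folr1*) and carried across the epithelium, and is also moved by the reduced folate carrier (*Slc19a1*). Ascorbate enters cells with sodium through *Slc23a1* and *Slc23a2*, thiamine through *Slc19a2* and *Slc19a3*, and biotin and pantothenate through the sodium-dependent multivitamin transporter *Slc5a6*. The RPE, part of the reference, is itself a transporting epithelium that supplies the retina with folate, so a ratio near 0 in these data sets one barrier tissue against another.

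Of the 8 genes, 3 were higher in CPE than in the reference: the ascorbate transporter *Slc23a2* (13.3-fold), folate receptor alpha *Folr1* (4.97-fold) and the multivitamin transporter *Slc5a6* (2.92-fold). None was lower past the threshold, 3 (*Slc19a1*, *Folr2* and *Slc19a2*) did not pass it, and 2 (*Slc19a3* and *Slc23a1*) were too dim to enter the test. A gene passed where its brightest tested probe was both 2-fold or more apart and below 0.05 in adjusted p, by limma with Benjamini-Hochberg adjustment over all 25840 tested probes. Over all 14772 genes with a tested probe, 9.15% were higher in CPE by the same rule, 11.1% were lower and 20.3% were called in either direction. The median log2 ratio of the 6 tested carriers was 1.06, beside -0.01 over all genes tested. Per probe, 4 of the 8 tested were past the threshold, against 17.3% of all tested probes (7.09% higher in CPE and 10.2% lower).

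In CPE itself, 6 of the 12 probes had a high expression, which means a mean percentile rank above 90 among all probes of the array and which 10% of all probes had. They belonged to *Folr1* (2 probes), *Slc23a2*, *Slc5a6*, *Slc19a1* and *Slc19a2*. A percentile ranks spots by brightness and not transcripts by number, so it is not used to order genes.

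**Figure D1:**
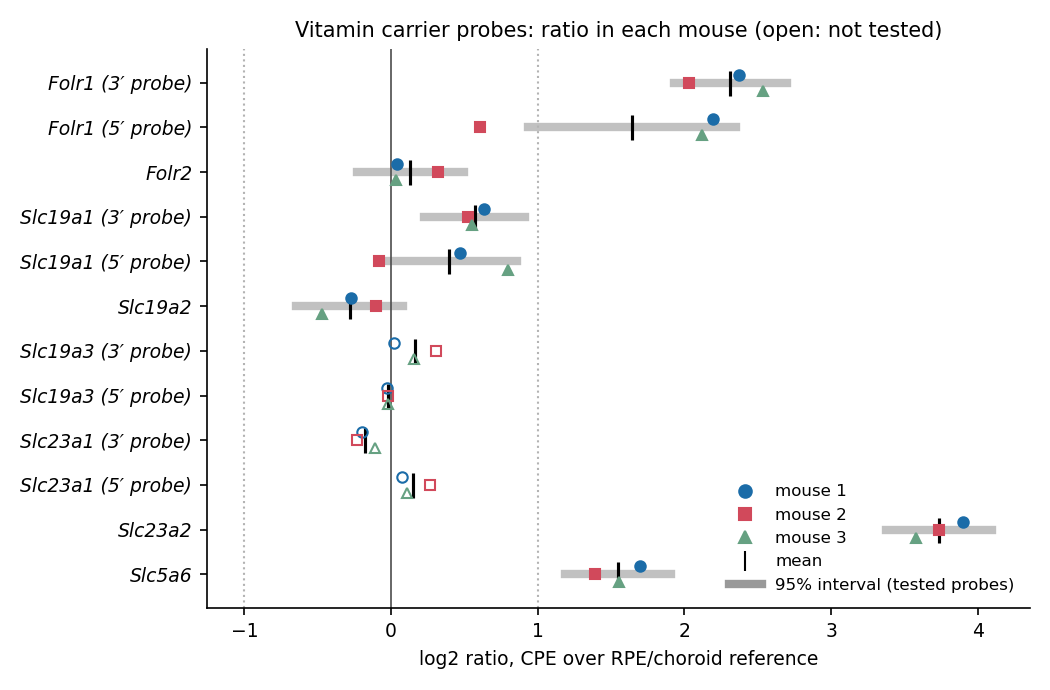
Log2 ratio of CPE over the RPE/choroid reference for each of the 12 probes (rows), with 1 symbol per mouse, a black tick at the mean, a grey bar for the 95% interval of tested probes, and dotted lines at a 2-fold change. *Slc23a2* lies between 3.58 and 3.90 in the 3 mice, the 5′ probe of *Folr1* has mouse 2 at 0.60 apart from the others, and open symbols are probes that were not tested.

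The tissue source of the samples was checked with marker genes. Of 11 CPE markers, 9 were higher in CPE (*Kl* 5.42, *Htr2c* 5.09 and *Prlr* 4.38 on the log2 scale) and all 11 had a high expression, whereas 9 of 10 markers of RPE and melanocytes (*Tyrp1* -8.17, *Rpe65* -6.71, and *Dct* at or below -5.87, a bound since its reference spot was saturated on 3 of 3 arrays) and 7 of 7 of photoreceptors (*Nrl* -6.37, *Prph2* -5.46, *Gnat1* -4.91) were lower. Even so, 2 of the 10 RPE and melanocyte markers had a high expression in CPE (*Dct* at percentile 92.5 and *Pmel* at 93.1). So did 1 of the 7 photoreceptor markers (*Gnat1* at 93.6). Stroma markers were lower in 5 of 6 (*Dcn* -3.79 with its reference spot saturated on 2 arrays, *Col3a1* -2.24, *Lum* -1.85), but 5 of the 6 still had a high expression in CPE. *Dcn* was called at 1 of its 2 tested probes. *Col1a1* was called lower at its brightest probe (-1.19) and higher at its other tested probe. No endothelial marker of 6 passed (log2 ratios from -0.54 to 0.95, with *Pecam1* 0.95, *Cdh5* 0.94 and *Cldn5* -0.54 the farthest from 0). Neuron markers were lower in 3 of 5 (*Nefl* -4.71, *Snap25* -3.72, *Syt1* -3.56), the 2 red cell markers measured were lower (*Hba-a1* -1.94 and *Alas2* -1.12), and of 5 astrocyte and ependyma markers 3 were higher (*Foxj1* 2.98, *Tmem212* 2.71, *Aldh1l1* 1.01) and 1 lower (*Aqp4* -1.28). The array of mouse 3 was brighter in the CPE channel even at its 314 negative control spots (median 357, against 77.5 and 78.1 for mice 1 and 2), and probes well above background in CPE were 58.5%, 46.0% and 85.6% of all for mice 1, 2 and 3. What other cells in the cut tissue added to the carriers' signals was not tested, and in such bulk samples fewer cells of a type and less RNA per cell cannot be told apart.

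The upstream sequences of the 2 called carriers that RefSeq's promoter table holds are shown first. Whether these genes share any regulation was not tested. The table (build GRCm38.p6) matched 6 of the 8 genes, with 10 windows. *Folr1* and *Slc23a1* had no entry. Each line gives the 250 bases before the outermost listed start, 5′ to 3′ on the gene's own strand, which is the minus strand for both (chr2:132145321-132145570 for *Slc23a2* and chr5:31048563-31048812 for *Slc5a6*). Capitals mark CCAAT and GGGCGG on either strand.
Slc23a2: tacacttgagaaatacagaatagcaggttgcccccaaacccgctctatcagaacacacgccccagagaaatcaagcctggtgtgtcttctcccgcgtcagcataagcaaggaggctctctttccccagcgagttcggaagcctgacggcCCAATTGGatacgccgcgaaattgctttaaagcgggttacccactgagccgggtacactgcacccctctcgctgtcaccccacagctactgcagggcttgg
Slc5a6: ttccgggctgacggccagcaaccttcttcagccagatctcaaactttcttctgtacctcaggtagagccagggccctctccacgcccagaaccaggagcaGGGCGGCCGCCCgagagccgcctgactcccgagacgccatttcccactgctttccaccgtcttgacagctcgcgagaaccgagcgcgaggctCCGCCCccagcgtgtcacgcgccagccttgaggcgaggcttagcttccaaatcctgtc
This *Slc23a2* window held CCAAT on each strand in 1 overlapping stretch, and no GGGCGG. This *Slc5a6* window held 3 matches to GGGCGG, of which 2 adjoin on opposite strands, and no CCAAT. The windows of the inner listed starts differed from these: that of *Slc23a2* (chr2:132145109-132145358) held 6 matches to GGGCGG and no CCAAT, and that of *Slc5a6* (chr5:31048080-31048329) held 4 to GGGCGG and 1 to CCAAT. Over all 32851 windows of the same length, 33.8% held CCAAT and 32.7% held GGGCGG on either strand. None of these 4 windows held TAATCC (6.25% of all), CACGTG (6.02%) or TATAAA (12.4%), searched on both strands. The bases G and C made up 56.0% of the outer and 78.8% of the inner window of *Slc23a2*, and 63.6% and 70.8% of those of *Slc5a6*, beside a median of 52.4% over all windows. The windows of the other 4 genes read were searched in the same way. *Slc19a2* held 2 matches to CCAAT and 2 to GGGCGG. The outermost window of *Slc19a1* held 2 to GGGCGG and its inner window none. *Slc19a3* and both windows of *Folr2* held none of the 5.

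Folate receptor alpha was higher in CPE at both of its probes. *Folr1* was measured by 2 probes on chromosome 7, minus strand, of the same transcript (mm8, the build of the array's coordinates): a 3′ probe at chr7:101732236-101732295 and a 5′ probe at chr7:101742279-101742338, 10043 bases apart in the genome. At the 3′ probe the CPE signal, the mean intensity of the spot with no background taken off, was 29254, 13857 and 13978 in mice 1, 2 and 3, and the reference signal on the same arrays was 2376, 2026 and 1396. CPE was the brighter channel on each array, and the lowest CPE signal lay above the highest reference signal. The log2 ratios after background correction and loess were 2.37, 2.03 and 2.53, with a mean of 2.31 (SE 0.17, 95% interval 1.93 to 2.70, n = 3; adjusted p 6.1e-05 by limma), or 4.97-fold (3.80 to 6.49). Only 0.840% of tested probes had a ratio at least as high. In CPE the probe stood at percentiles 99.4, 99.1 and 99.0, and in the reference at 94.3 by its mean level. The receptor was thus a bright spot in both tissues.

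At the 5′ probe of *Folr1* the CPE signal was 6095, 1167 and 5890 and the reference signal 673, 648 and 832. Mouse 2 was low in CPE alone, while its reference signal was like that of mouse 1. The log2 ratios were 2.19, 0.60 and 2.12 (mean 1.64, SE 0.30, 95% interval 0.93 to 2.35, n = 3, adjusted p 0.00475 by limma), a 3.12-fold difference. The SD of these ratios between mice was 0.90, against a median of 0.26 over all tested probes, and 1.75% of them had an SD as large. Leaving out mouse 2 gave 2.16, which is also the value within the scan day of mice 1 and 3, while leaving out mouse 1 or mouse 3 gave 1.36 or 1.40. The probe was past the threshold each time, but it was not when a change of more than 2-fold was itself tested (adjusted p 0.396, limma's treat).

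The gap between the probes was compared with that of other genes, as the CPE RNA was amplified. In mouse 2 the log2 ratio at the 5′ probe of *Folr1* was 1.43 below that at the 3′ probe, a difference of -1.43, beside -0.18 and -0.41 in mice 1 and 3. The same difference was taken over 3520 genes, between their outermost measured probes, at least 100 bases apart in the genome. Its median was -0.27 in mouse 2, and 0.07 and 0.05 in mice 1 and 3. These pairs need not span a transcript and can lie closer than the 10043 bases of the *Folr1* pair. Set against the mean of the other mice, mouse 2 deviated by -1.13 for *Folr1* and by a median of -0.33 over all these genes, and 11.4% of genes had a deviation at or below that of *Folr1*. *Slc19a1* gave -0.16, -0.60 and 0.25, again lowest in mouse 2. The part of this 5′ pattern in the spread of *Folr1* was not tested.

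**Figure D2:**
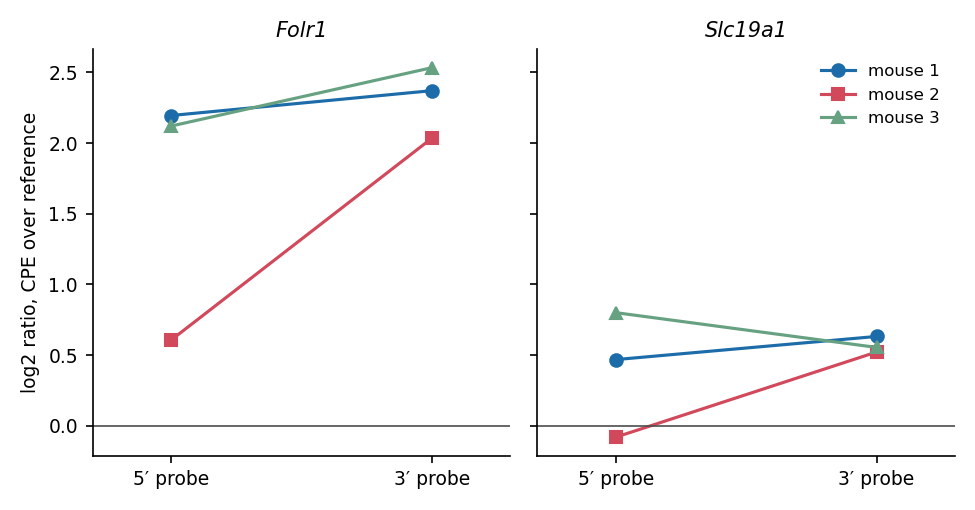
Log2 ratio of CPE over reference at the 5′ and the 3′ probe of *Folr1* (left) and *Slc19a1* (right), with 1 line per mouse. The 3 mice lie together at the 3′ probes, and mouse 2 is lowest at both 5′ probes, at 0.60 for *Folr1* and -0.08 for *Slc19a1*.

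*Folr2*, folate receptor beta, lay next to *Folr1* on the same strand, with its single probe at chr7:101714078-101714137, 18158 bases from the 3′ probe of *Folr1*. This receptor is known from macrophages, where it marks a resident type. Its CPE signal was 474, 377 and 1101 and its reference signal 337, 336 and 563, both highest on the bright array of mouse 3. The log2 ratios were 0.04, 0.32 and 0.03, with a mean of 0.13 (SE 0.16, 95% interval -0.23 to 0.49, n = 3, adjusted p 0.544 by limma), so a difference of more than about 0.49 on the log2 scale lay outside the interval. Its percentiles in CPE were 71.3, 76.4 and 75.6, a moderate expression. Within an array the ratio of *Folr1* exceeded that of *Folr2* by 2.33, 1.71 and 2.50, a mean difference of 2.18 ± 0.42 (SD, n = 3). Of the 9 macrophage markers, 8 were tested and 5 were lower in CPE (*Lyz2* -3.40, *Cd68* -1.89 and *Pf4* -1.51 the largest). The 8 tested had mean log2 ratios from -3.40 to -0.32, all below the mean of *Folr2*. The 95% intervals of *Lyve1* (-0.75 to 0.12) and *Aif1* (-0.92 to -0.003) overlapped that of *Folr2*. In mouse 3, *Lyve1* (0.12) stood above *Folr2* (0.03). *Csf1r*, the receptor that macrophages depend on, stood at percentile 90.5 in CPE by its brightest probe, which was lower than the reference (-1.18). It was called lower at 1 of its 3 tested probes. The median percentile of the 9 markers in CPE was 73.5, with a range from 14.4 to 97.8. The part of macrophage RNA in the *Folr2* signal was not tested.

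*Slc19a1*, the reduced folate carrier, had a high expression in CPE but differed little from the reference. At its 3′ probe (chr10:76493845-76493904, plus strand) the CPE signal was 4242, 2728 and 4012 and the reference signal 1320, 1346 and 1511. The log2 ratios of 0.63, 0.52 and 0.55 lay close together and above 0 in each mouse. Their mean of 0.57 (SE 0.15, 95% interval 0.22 to 0.92, n = 3, adjusted p 0.0194 by limma) was past the p but under 2-fold, so the gene was not called. Median centring of the arrays in place of loess gave 1.25 (adjusted p 0.0161), and with it the gene was past the threshold. Its percentiles were 94.5, 94.7 and 95.4 in CPE, and 92.0 by the mean level in the reference.

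The 5′ probe of *Slc19a1* (chr10:76482230-76482289, 11615 bases away) was dimmer, with a CPE signal of 265, 108 and 829 and a reference signal of 191, 189 and 312. It was well above background in CPE on 2 of the 3 arrays. The log2 ratios were 0.47, -0.08 and 0.80 (mean 0.40, SE 0.20, n = 3, adjusted p 0.154 by limma), with mouse 2 lowest. The percentile of its mean level in CPE was 59.2, a moderate expression, so the 2 probes of this gene fell into different classes.

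Of the ascorbate transporters, *Slc23a2* was higher in CPE and *Slc23a1* was not measured on all arrays. *Slc23a2*, the transporter SVCT2, had a single probe at chr2:131744217-131744276 on the minus strand. Its CPE signal was 10386, 6083 and 7445, while its reference signal was 366, 359 and 453. The 2 tissues were far apart on every array. The log2 ratios of 3.90, 3.74 and 3.58 had a mean of 3.74 (SE 0.16, 95% interval 3.38 to 4.10, n = 3, adjusted p 8.1e-06 by limma), a 13.3-fold difference (10.4 to 17.1). The probe ranked 32 among the ratios of all 25840 tested probes, counted from the highest. Its percentiles were 98.0, 97.7 and 97.6 in CPE against 72.1 by the mean level in the reference. Leaving out each mouse in turn gave ratios from 3.66 to 3.82, and median centring gave 4.38.

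*Slc23a1*, the transporter SVCT1 known from kidney and intestine, had 2 probes, and neither entered the test because each was well above background on the array of mouse 3 alone, in both channels. The 3′ probe had a CPE signal of 77.6, 72.6 and 431 and a reference signal of 108, 103 and 274. These lay near the negative control spots of the same arrays, whose median CPE signals were 77.5, 78.1 and 357, and whose 95th percentiles were 84.7, 86.8 and 426. The 5′ probe had a CPE signal of 94.2, 92.2 and 873 and a reference signal of 137, 125 and 433, above those 95th percentiles in CPE on each array. By their mean levels, the probes stood at percentiles 7.29 (very low) and 46.4 (low) in CPE. Those of the second were 28.2, 36.8 and 63.4 in the 3 mice. The log2 ratios of both probes lay from -0.23 to 0.27 in all mice. In the fit without a filter on dim probes they were at -0.18 and 0.15 (adjusted p 0.357 and 0.456 by limma).

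Of the thiamine transporters, *Slc19a2* did not pass the threshold and *Slc19a3* did not enter the test. *Slc19a2*, the thiamine transporter THTR1, had 1 probe at chr1:166101190-166101249 on the plus strand, with a CPE signal of 2403, 1853 and 2156 and a reference signal of 1444, 1447 and 1564. Loess, which balances the dyes along the range of brightness, placed the ratios below 0 although the Cy5 signal was the brighter. The log2 ratios were -0.27, -0.10 and -0.47 (mean -0.28, SE 0.16, 95% interval -0.65 to 0.08, n = 3, adjusted p 0.196 by limma), and median centring turned the sign, to 0.37 (adjusted p 0.472), so no direction is given for this gene. Its percentiles were 90.7, 92.4 and 90.9 in CPE and 92.5 by the mean level in the reference. That put it just inside the high class, and ranking over probes with a curated transcript put it just outside, at 87.7.

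*Slc19a3*, the thiamine transporter THTR2, had 2 dim probes 985 bases apart on chromosome 1, minus strand. At the 3′ probe (chr1:82891933-82891992) the CPE signal was 117, 112 and 584 and the reference signal 163, 159 and 310, and at the 5′ probe (chr1:82892918-82892977) they were 104, 89.2 and 747 and 153, 147 and 402. The high values were those of the array of mouse 3, whose negative controls were brighter too. The 3′ probe was well above background on 2 arrays in each channel and the 5′ probe on 1, so neither entered the test. Their log2 ratios lay from -0.03 to 0.31. The percentiles of their mean levels in CPE were 44.6 and 42.7, both a low expression. Without the filter on dim probes the ratios were 0.16 and -0.02 (adjusted p 0.436 and 0.924 by limma).

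*Slc5a6*, the sodium-dependent multivitamin transporter of biotin and pantothenate, was the remaining carrier higher in CPE. Its probe at chr5:31312884-31312943, minus strand, gave a CPE signal of 5756, 3430 and 4918 and a reference signal of 875, 947 and 989. CPE was brighter in each mouse. The log2 ratios were 1.70, 1.39 and 1.55 (mean 1.55, SE 0.15, 95% interval 1.19 to 1.91, n = 3, adjusted p 0.000281 by limma), a 2.92-fold difference (2.27 to 3.75). The interval stayed above 2-fold, whereas the test against a 2-fold change over all probes gave an adjusted p of 0.0717 (limma's treat). Its percentiles were 96.0, 95.8 and 96.2 in CPE and 87.7 by the mean level in the reference.

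**Figure D3:**
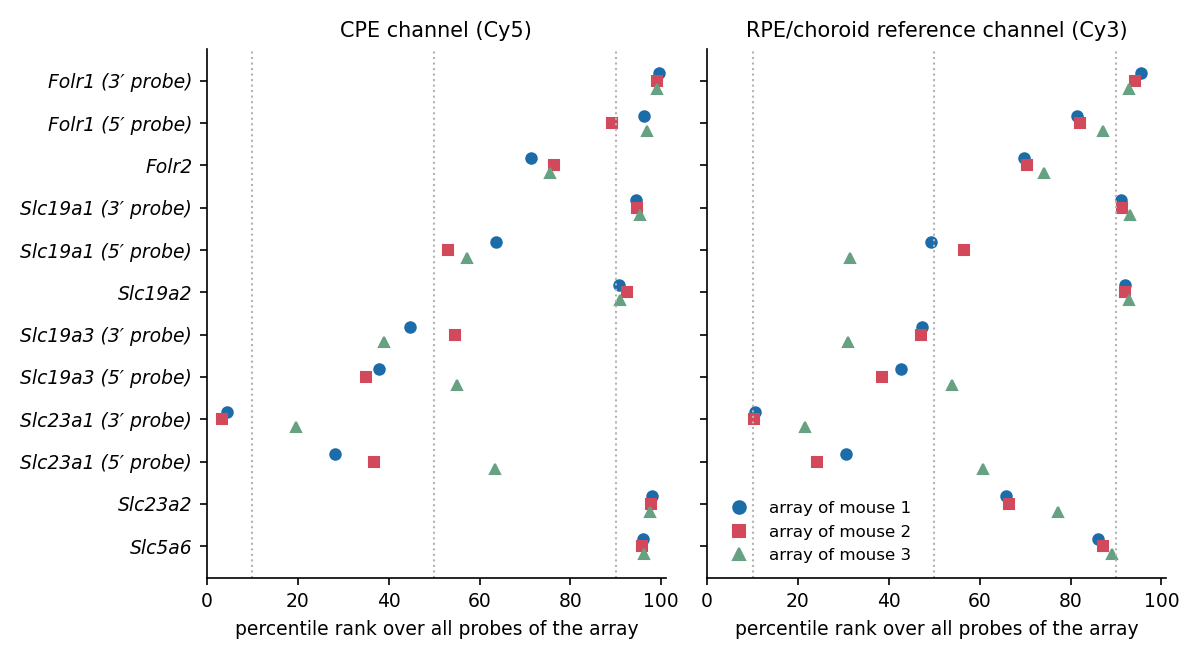
Percentile rank of each of the 12 probes among all probes of an array, in the CPE channel (left) and the reference channel (right), with 1 symbol per array and dotted lines at 10, 50 and 90. By the mean level, *Slc23a2* moves from 72.1 in the reference to 97.8 in CPE, whereas *Slc19a2* and *Slc19a1* (3′ probe) stand above 90 in both channels.

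Ordered by ratio, the tested genes ran *Slc23a2*, *Folr1*, *Slc5a6*, *Slc19a1*, *Folr2* and *Slc19a2*, each by its brightest probe. The order was set by these same ratios, so the steps are a description. The step from *Slc23a2* to *Folr1* was 1.42 ± 0.34 (SD, n = 3), from *Folr1* to *Slc5a6* 0.77 ± 0.19, and from *Slc5a6* to *Slc19a1* 0.98 ± 0.10. The step from *Slc19a1* to *Folr2* was 0.44 ± 0.21, and from *Folr2* to *Slc19a2* 0.41 ± 0.10. The 95% intervals of *Slc19a1* and *Folr2* overlapped, as did those of *Folr2* and *Slc19a2*, while those of the first 4 genes did not overlap with each other. With the 5′ probes the order did not hold in mouse 2, where *Folr1* (0.60) stood below *Slc5a6* (1.39), and *Slc19a1* (-0.08) below *Folr2* (0.32).

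**Figure D4:**
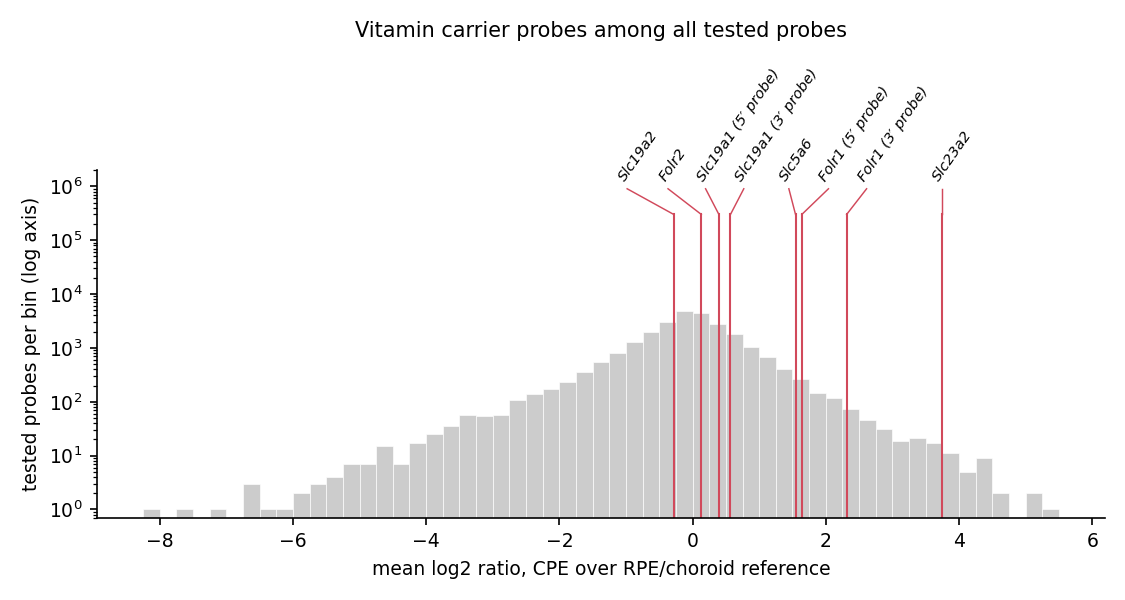
Number of tested probes per bin of 0.25 of the mean log2 ratio of CPE over reference, on a log axis, for all 25840 tested probes. Red lines mark the 8 tested carrier probes, with *Slc19a2* at -0.28 and *Slc23a2* at 3.74 at their ends.

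The genes with the ratios most like those of a carrier were found by the distance between the log2 ratios of the 3 mice, over 11955 genes well above background in both channels. For *Folr1* (3′ probe) these were *Xist* (distance 0.23), the RNA that coats the inactive X chromosome of female cells, *Cdkn1c* (0.26), a cyclin-dependent kinase inhibitor, and *Rnasek* (0.29). *Xist* itself was higher in CPE by 2.44, and the part of the animals' sex in that ratio was not tested. For *Slc23a2* they were *Hs6st2* (0.21), a heparan sulfate sulfotransferase, *Tspan33* (0.21), a tetraspanin, and *Cfap52* (0.22), a protein of cilia and flagella. For *Slc19a2* they were *Nifk* (0.02), *Rhbdl3* (0.03) and *Actl6a* (0.04), among the many genes with a ratio near 0.

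Beyond the carriers, 99 genes of the same pathways were read from 6 lists, of which 98 were on the array, 90 were tested and 27 were past the threshold. This count stands beside 20.3% called over all genes (9.15% higher and 11.1% lower), which is also the background of each list below, and the list of thiamine genes, with 2 of 12, lies near it. Of 9 tested folate carriers and receptors outside the members, 2 were higher in CPE and 1 was lower, with a median log2 ratio of 0.27. *Slc46a1*, the proton-coupled folate transporter that acts with *Folr1* at the choroid plexus, was higher by 2.08 (2.49, 2.17 and 1.59 in the 3 mice, adjusted p 0.000229 by limma). *Ggh*, which trims the glutamate tail of folates, was higher by 1.71 (adjusted p 0.000177). *Lrp2*, the endocytic receptor megalin, was lower, at -2.96 for its brightest probe (adjusted p 1.8e-05), and 2 of its 4 tested probes were called lower. *Abcc4*, an exporter, was at 0.76 with a high expression (percentile 95.8) and did not reach 2-fold.

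Of 22 tested folate and one-carbon enzymes, 6 were higher in CPE and none was lower, with a median of 0.38. They were *Dmgdh* (1.97) and *Gnmt* (1.92), which work on glycine and its methyl forms, *Bhmt* (1.96), which remakes methionine from homocysteine, *Mthfd1* (1.70), *Atic* (1.18) and *Aldh1l1* (1.01), which handle formyl and methenyl folates. *Bhmt* ranged from 0.85 in mouse 3 to 2.68 in mouse 1, and *Mthfd1* was called at 1 of its 2 probes. *Mthfd1* and *Aldh1l1* also had a high expression in CPE, as did *Mat2a* (log2 ratio -0.87) and *Qdpr* (-0.49), which did not pass. *Aldh1l1* was under 2-fold without mouse 1 (0.93). Without mouse 2, *Mthfd1l* was called lower (-1.08). Without mouse 3, *Shmt2* (1.20) and *Cbs* (1.17, against 0.73 with all mice) were called too, for 8 higher in all.

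Of 12 tested genes of thiamine transport and use, 2 were higher, with a median of 0.36. *Tkt*, the transketolase of the pentose phosphate pathway, was at 1.25 (adjusted p 0.00072 by limma) with a high expression, and 1 of its 2 tested probes was called. *Ogdh*, a subunit of the oxoglutarate dehydrogenase complex, was at 1.39 (adjusted p 0.0323), but with 2.32, -0.11 and 1.97 in mice 1, 2 and 3. It did not pass without mouse 1 (0.93, adjusted p 0.141) or without mouse 3 (1.10, adjusted p 0.158). *Pdha1* (0.26), *Pdhb* (-0.11) and *Bckdha* (0.84) had a high expression and did not pass at their brightest probe, though the other probe of *Bckdha* was called. *Slc44a4*, a carrier of thiamine pyrophosphate, was at -0.85 (adjusted p 0.00451), under 2-fold, and at -1.32 and called lower with the scanner's ratio. Without mouse 3, *Hacl1* was called higher (1.16).

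Of 16 tested genes of ascorbate recycling and use, 2 were higher and 3 lower, with a median of 0.15. *Cyb561*, a membrane cytochrome that passes electrons from ascorbate, was higher by 4.38 (4.63, 4.30 and 4.21 in the 3 mice, adjusted p 6.7e-06 by limma), beside 3.74 for *Slc23a2*, and *Plod2*, a lysyl hydroxylase that needs ascorbate, was higher by 1.52. *Gsto1*, a glutathione transferase that can reduce dehydroascorbate, was lower, at -5.54, with its reference spot saturated on 2 arrays. The glucose transporters that also carry dehydroascorbate were lower too, *Slc2a1* at -2.27 and *Slc2a3* at -1.09, and *Slc2a3* was under 2-fold without mouse 1 (-0.94) and with median centring (-0.85). *Slc2a1* and *Gsto1* still had a high expression in CPE (percentiles 98.8 and 93.9). *Cyb561* had one too (99.4), as did *Cyb5r3* (0.73), *Txnrd1* (0.12) and *P4ha1* (0.75), which did not pass. Without mouse 2, *Cyb5r3* was called higher (1.02).

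Of 18 tested genes of biotin and pantothenate handling, 6 were higher and 1 lower, with a median of 0.46. *Btd*, the biotinidase that frees biotin, was higher by 2.04 (2.03, 2.17 and 1.92 in the 3 mice, adjusted p 7.3e-05 by limma). Of the subunits of carboxylases that use biotin, *Mccc1* (1.60), *Acacb* (1.51), *Pcca* (1.13) and *Pcx* (1.08) were higher, while *Pccb* (0.79), *Acaca* (0.36) and *Mccc2* (0.32) did not pass. *Pank1*, which starts coenzyme A synthesis from pantothenate, was higher by 1.04. *Slc16a1*, a monocarboxylate transporter, was lower, at -3.46, and was called lower at all 3 probes. *Btd*, *Pcx*, *Pcca*, *Mccc1* and *Slc16a1* had a high expression in CPE, as did *Pccb*. Without mouse 2, *Pcx* (0.97) and *Pank1* (0.77) were under 2-fold.

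Of 13 tested genes of riboflavin and cobalamin handling, 4 were higher and none lower, with a median of 0.71. *Tcn2*, the carrier of cobalamin in blood, was higher by 2.07 (2.38, 1.58 and 2.25 in the 3 mice, adjusted p 0.00021 by limma), and *Cd320*, its receptor, by 1.34, with both its probes called. *Rfk* (1.19, called at 1 of 3 probes) and *Flad1* (1.08) make the flavin cofactors. *Flad1* ranged from 0.10 in mouse 3 to 1.76 in mouse 2 and was not past the threshold without mouse 1 (0.93) or mouse 2 (0.74). Without mouse 3, *Slc52a2*, a riboflavin transporter, was called higher (1.22, against 0.96 with all mice). *Tcn2*, *Rfk*, *Lmbrd1* (0.71) and *Mmut* (0.79) had a high expression in CPE, the last 2 without passing.

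**Figure D5:**
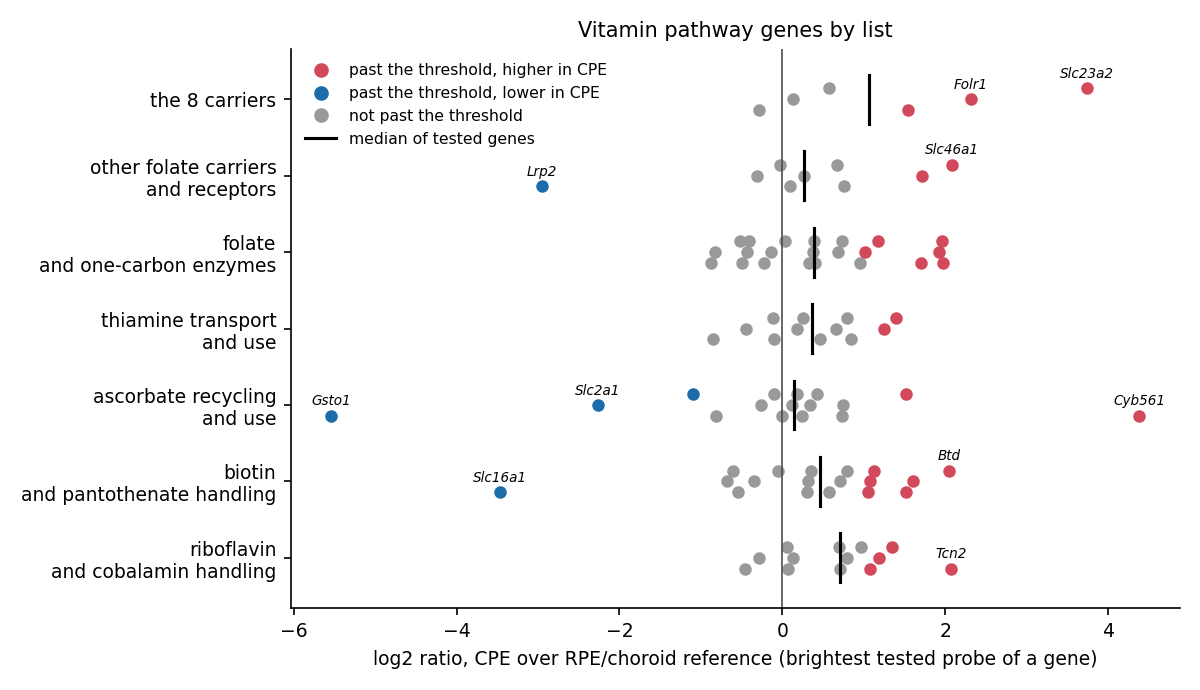
Log2 ratio of CPE over reference at the brightest tested probe of each gene of the 8 carriers and of the 6 pathway lists, in red where past the threshold and higher in CPE, in blue where past it and lower, and in grey otherwise, with a black line at each list's median. Genes beyond 2 on the log2 scale are named, from *Gsto1* at -5.54 to *Cyb561* at 4.38.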

How the data were processed

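RNA of 3 CPE samples (Cy5) was measured on two-colour 60-base oligonucleotide arrays against 1 RPE/choroid reference RNA (Cy3). The deposited scanner files hold spot intensity in both channels, read out by the authors in Agilent Feature Extraction 9.5.3.1 (per the file headers), with flags, a processed intensity and a log10 ratio. The deposited value table holds log2 levels normalized between arrays by the authors (R 2.14.0, limma, Aquantile). Its column medians were 6.97, 6.92 and 6.89. Set against the scanner values, it followed the CPE channel (Spearman rho 0.998, 0.998 and 0.999 across probes with background correction) and not the ratio, and whether background had been subtracted stays unknown.

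Here, mean intensities were corrected with normexp (offset 50, local background), loess-normalized within arrays and fitted with limma 3.58.1 (R 4.3.3; lmFit and eBayes, two-sided test of the mean log2 ratio against 0). Control spots were left out. A probe entered the test where either channel was well above background on each of the 3 arrays, with Benjamini-Hochberg adjustment over all of them. Intervals are 95% and assume that the mice are independent. Percentiles follow the study's methods: log2 mean intensity, Aquantile, rank over the array, with high above 90, moderate 50 to 90, low 10 to 50 and very low below 10. A single percentile for a probe ranks its mean log2 level over the 3 arrays. For a gene with several probes, the brightest tested probe over both channels stood for it. The 5′ and 3′ probes were told apart by genome position and strand, for probes of a gene at least 100 bases apart.

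Symbols of 56.8% of probes were updated through RefSeq accessions, and the others kept the name in the files. Named were all members, pathway genes past the threshold or with a high expression, the 3 largest ratios of each marker list, and the 3 genes most like the leading folate, thiamine and ascorbate carrier. *Csf1r*, *Lyve1*, *Aif1*, *Col1a1*, *Slc44a4*, *Acaca*, *Mccc2* and the genes called only with a mouse left out were named in addition, after their values were seen. The members and lists were chosen with earlier results of these data known. The fit was tested on simulated data. The number of arrays limits the precision. Alternatives were the background correction, the scanner's ratio, median centring, filters, array weights, a test against 2-fold, other rankings, the mean over probes, and leaving out each mouse.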

Additional observations from a re-analysis of the deposited data

How the results depend on the processing

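Of 87 carrier results under the alternatives, 83 kept their direction and their side of the threshold. The filters and the test against 2-fold leave the ratios as they are, so there only the side of the threshold could change. The sign of *Slc19a2* reversed under median centring, to 0.37, *Slc19a1* (3′ probe) passed there, and *Folr1* (5′ probe) and *Slc5a6* no longer passed when a change over 2-fold was tested. That test left 2 carrier probes, 12 pathway genes and 1413 of all probes past the threshold. The scanner's log ratio called 6761 probes. The causes were not tested, except that a test against 2-fold is stricter by construction. Median centring moved the median of all ratios from -0.04 to 0.09 and the share of calls that were higher in CPE from 41.1% to 67.0%, with 5 carrier probes called. It called 4 other folate carriers, 7 folate enzymes, 4 thiamine, 4 ascorbate, 9 biotin and pantothenate and 8 riboflavin and cobalamin genes higher. Without background correction *Aldh1l1*, *Ogdh*, *Slc2a3*, *Pank1* and *Flad1* did not pass, and with the scanner's ratio *Ogdh* and *Flad1* did not. The mean over a gene's probes again gave 3 carrier genes. Leaving out each mouse gave 4 carrier probes and 3 carrier genes every time, 23 to 30 pathway genes and 4029 to 5311 probes.

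High expression was kept by 3 carrier probes when ranks were taken over probes above background in CPE alone, a smaller set that holds no dim probe, and by 6 whichever mouse was left out. The background fitted by the scanner software and the deposited levels were chosen as alternatives after seeing the data. The correlation within a scan day could not be estimated. No paired analysis was possible because the samples form 1 group. Signal over background kept *Slc19a3* and *Slc23a1* out of the filtered test, and without the filter none of their 4 probes passed (adjusted p from 0.357 to 0.924).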
